A study of Mus musculus with 8 samples.

Results

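The genes described here encode enzymes that cut the extracellular matrix, the inhibitors that hold the metalloproteinases among them in check, and enzymes that crosslink collagen and elastin. They are the matrix metalloproteinases (Mmp), the tissue inhibitors of metalloproteinases (Timp), the secreted ADAMTS proteases (Adamts) and the lysyl oxidases (Lox and Loxl). Members were taken by symbol, with no threshold on a measured value, and there were 48 of them, on 50 of the 31854 rows of the table: 22 Mmp, 3 Timp, 19 Adamts and 4 Lox or Loxl genes. RNA came from epididymal white adipose tissue, a fat pad found only in males, and all animals were fed a high-fat diet. The controls were wild type (WT, replicates 1, 2, 3 and 5), and the other group carried a knock-in allele of PPAR-gamma in which serine 273 is alanine (S273A, replicates 2, 3, 4 and 6), with 4 libraries in each group. PPAR-gamma, encoded by Pparg, is a ligand-activated transcription factor required to make fat cells, and alanine cannot take up the phosphate that serine can. A count table cannot show the changed codon, so read counts do not check the labels. Both groups ate the same kind of diet, so no lean mice were compared. The labels used here give neither the age of the mice, nor the length of the diet, nor the number of copies of the allele, nor whether each library came from its own animal, so a p-value measures only the spread between these libraries.

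Fat tissue that grows in obesity has to open and rebuild the collagen-rich mesh around each fat cell. Metalloproteinases are made as inactive precursors, become active when a propeptide is removed, and are then blocked by Timp proteins that fill the catalytic cleft. ADAMTS enzymes trim proteoglycans or the ends of procollagen, and lysyl oxidases convert lysines of collagen and elastin into reactive aldehydes from which crosslinks form. In an expanding depot these genes are transcribed by several cell types, with stromal fibroblasts and macrophages as well-known sources.

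Total counts were 14880239 to 18194889 per library, and the 48 members took 0.407% to 0.459% of them. The 8 adipocyte markers summed to 5270 to 8204 CPM (read counts scaled to one library size) in WT and 6156 to 8070 in S273A, and the 12 macrophage markers to 7395 to 9807 and 6729 to 8679 CPM. The epididymis and testis markers, of which 8 of 10 had a row, summed to 0.675 CPM or less in every library. WT replicate 2 had the lowest adipocyte sum and the highest macrophage sum of the 8 libraries. Library sizes behind CPM were corrected by TMM, edgeR's scaling between libraries. Whole tissue was sequenced, so fewer cells of a type and less RNA per cell cannot be told apart. The kit kept no strand, so reads where genes on opposite strands overlap cannot be assigned. In the gene annotation, 13 of the 48 members shared exon bases with another gene.

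A group of 9 Mmp members lies within 427.1 kb of chromosome 9, from 7272514 to 7699585 (GRCm38, GENCODE M21), all on the plus strand. In the order of the chromosome these are Mmp13, Mmp12, Mmp3, Mmp1a, Mmp10, Mmp8, Mmp27, Mmp20 and Mmp7. Mmp1b lies among them on the minus strand, but no row carried its symbol. Promoters of Mmp genes are known for sites of AP-1, the Fos and Jun factor that answers growth factors and cytokines. By symbol, 17 of the 48 members, among them Mmp2, Mmp9, Mmp19, Lox and Adamts5, had no RefSeq promoter entry (GRCm38.p6) and were not searched. The other 31 had an entry, all 9 of the chromosome 9 genes among them. The AP-1 consensus TGAGTCA, or TGACTCA on the other strand, stood in the 250 bases before a start of 6 of these 9 genes and of 0 of the other 22 members. Over all 27025 genes with an entry the share was 5.16%. A match of letters is a description, not a measured site. The AP-1 consensus began at positions -73 to -35 relative to the start. Of the other motifs searched on both strands of the same window, TATAAA was found for 8 of the 31 members (14.3% of all genes) and the E-box CACGTG for 2 (6.86%). The 120 bases before the start are printed for 8 of the 9 genes because neighbours with the same match differed widely in read count. They read 5′ to 3′ on the plus strand of chromosome 9, with the AP-1 consensus in capitals. For Mmp12 and Mmp7, which have more than 1 listed start, the start with the match is shown.
Mmp13, chr9:7272394-7272513: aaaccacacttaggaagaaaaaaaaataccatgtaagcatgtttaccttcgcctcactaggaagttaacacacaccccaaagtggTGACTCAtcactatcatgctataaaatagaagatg
Mmp12, chr9:7347254-7347373: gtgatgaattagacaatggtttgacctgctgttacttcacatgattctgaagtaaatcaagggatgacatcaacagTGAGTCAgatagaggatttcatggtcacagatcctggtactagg
Mmp3, chr9:7445702-7445821: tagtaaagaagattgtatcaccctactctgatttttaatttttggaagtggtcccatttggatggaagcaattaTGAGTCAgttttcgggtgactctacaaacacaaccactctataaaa
Mmp1a, chr9:7464021-7464140: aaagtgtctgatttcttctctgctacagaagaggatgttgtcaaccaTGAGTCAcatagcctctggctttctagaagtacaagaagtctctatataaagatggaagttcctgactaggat
Mmp10, chr9:7502222-7502341: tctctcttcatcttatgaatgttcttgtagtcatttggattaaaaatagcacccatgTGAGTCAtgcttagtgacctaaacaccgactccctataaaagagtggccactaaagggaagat
Mmp7, chr9:7691970-7692089: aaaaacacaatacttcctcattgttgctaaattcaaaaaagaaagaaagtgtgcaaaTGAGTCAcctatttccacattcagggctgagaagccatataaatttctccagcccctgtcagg
Mmp8, chr9:7558309-7558428: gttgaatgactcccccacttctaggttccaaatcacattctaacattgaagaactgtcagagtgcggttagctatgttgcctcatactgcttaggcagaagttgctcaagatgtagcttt
Mmp27, chr9:7571276-7571395: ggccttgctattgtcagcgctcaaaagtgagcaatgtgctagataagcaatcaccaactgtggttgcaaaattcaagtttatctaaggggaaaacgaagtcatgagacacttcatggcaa

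Among the 6 genes with the match, counts ran from 3046 or more per library for Mmp12 (macrophage elastase) and 261 to 454 for Mmp3 (stromelysin-1) to 5 or fewer for Mmp10 (stromelysin-2). Mmp13, collagenase-3, had 13 to 62 counts per library, and Mmp7, matrilysin, 0 to 16. Mmp1a, an interstitial collagenase annotated in GENCODE as a polymorphic pseudogene, had 2 counts in WT replicate 1 and 0 in the other 7 libraries, where a count of 0 allows up to 0.167 to 0.205 CPM. Without the match, Mmp27 had 89 to 207 counts, Mmp8 (the collagenase of neutrophils) 6 to 55 and Mmp20 (enamelysin, of tooth enamel) 1 count in all libraries together. Neighbouring members of the cluster therefore ranged from 1 read in all to 3046 or more per library in the same libraries, and the match was present at high and at low counts. These limits cover counting error only.

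**Figure D1:**
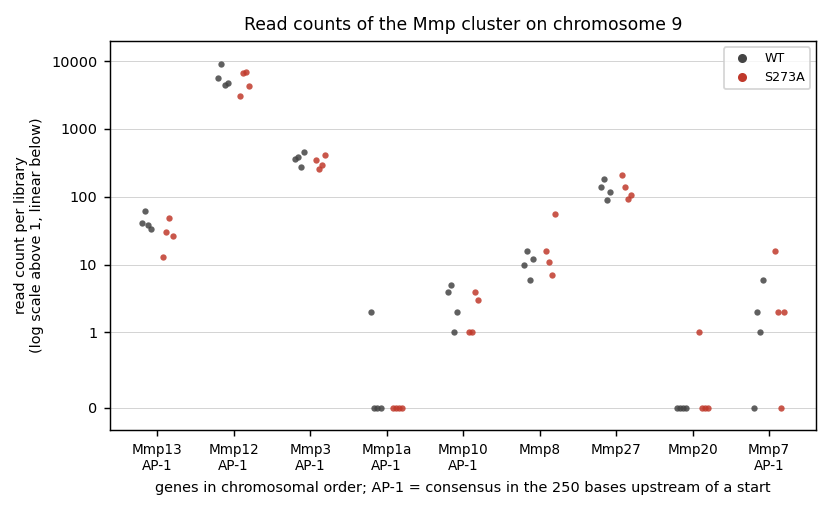
Read counts per library (vertical axis, logarithmic above 1 and linear below) of the 9 Mmp genes of chromosome 9 in chromosomal order, with WT in grey and S273A in red, 1 point per library. Mmp12 lay at 3046 counts or more in every library, while Mmp1a, Mmp10 and Mmp20 had 5 or fewer, and the genes with an AP-1 match are marked.

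Of the 48 members, 40 had enough counts to be tested, about 10 counts in at least 4 libraries. Levels between genes are compared per length, as CPM per kb of the row's deposited feature length, averaged over the 8 libraries. Among the tested members they ran from 241 CPM per kb for Timp2 to 0.067 for Adamts8, and 18 were at 10 CPM per kb or more. The 10 highest made up 80.0% of the sum over all 48 members. The deposited length was within 1.5 times the merged GENCODE exons for 39 of the 48, but only 0.308 times for Timp4, 0.638 times for Mmp14, 1.61 times for Mmp19 and 2.44 times for Adamts8. On merged exon length Timp4 was at 12.9 CPM per kb and left the 10 highest, Adamts8 was at 0.164 and no longer lowest, and Adamts18, at 0.0725, was the lowest tested member. Log2 fold changes are not touched by length.

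**Figure D2:**
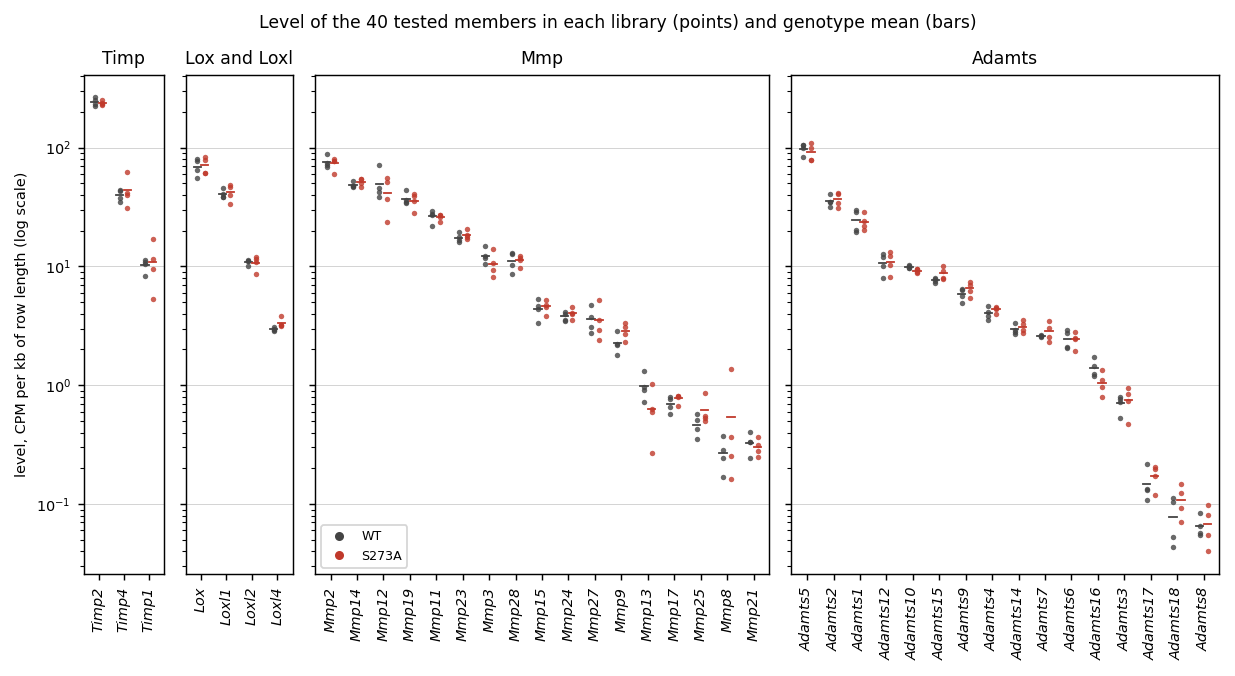
Level of each of the 40 tested members in CPM per kb of row length (logarithmic vertical axis), by family and in falling order, with 1 point per library (WT grey, S273A red) and a bar at each genotype's mean. Timp2 stands highest at a mean of 241, Adamts5 leads the Adamts genes at 94.7 and Mmp2 the Mmp genes at 74.6, and the points of the genotypes overlap at all genes but Loxl4 and Adamts10.

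Timp2 carried most of the RNA of the 3 Timp genes with a row. No row carried the symbol Timp3, so the Timp sums leave that gene out. Summed per length, the 3 Timp genes came to 294 ± 19.7 CPM per kb over the WT libraries and 293 ± 18.8 over the S273A libraries (SD, n = 4 each), beside 295 ± 18.0 and 287 ± 16.3 for the 22 Mmp genes. The ranges of these sums overlapped between genotypes. On merged exon length the sums of the mean levels were 248 CPM per kb for Timp and 282 for Mmp.

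Timp2, which besides inhibiting metalloproteinases helps Mmp14 to activate Mmp2, lies on chromosome 11, 118301069 to 118355740, on the minus strand. Its level was 811, 918, 839.8 and 962 CPM in WT replicates 1, 2, 3 and 5 and 916, 866, 841 and 834 CPM in S273A replicates 2, 3, 4 and 6, the order of libraries kept from here on. The S273A values lay inside the WT range, and the estimate, which here means the log2 fold change of S273A over WT, was -0.030 with an SE of 0.073 and a 95% confidence interval from -0.19 to 0.13. It was among the steadiest members, with a coefficient of variation (CV, SD over mean across the 8 libraries) of 6.001%.

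Timp4 is the family member long known from fat and heart, and it lies 108.7 kb from Pparg on chromosome 6, 115241892 to 115252205, on the minus strand within the synapsin gene Syn2, sharing 90 exon bases with it. Timp4 was at 80.3, 63.8, 67.9 and 78.4 CPM in WT and 113, 75.5, 73.01 and 56.6 CPM in S273A. S273A replicate 2 was highest and S273A replicate 6 lowest of all 8, so the WT range lay inside the S273A range (estimate 0.13, SE 0.18, interval -0.28 to 0.54). Without S273A replicate 2 the estimate was -0.087.

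Timp1, the inhibitor that inflammatory signals induce, lies inside the synapsin gene Syn1 on chromosome X, 20870166 to 20874735, and shares no exon bases with it. It was at 10.03, 9.27, 7.39 and 9.69 CPM in WT and 4.74, 8.43, 10.3 and 15.1 CPM in S273A. The 2 extremes were again S273A replicates 2 and 6, but the other way round from Timp4, with replicate 2 lowest and replicate 6 highest. The estimate was 0.080 (SE 0.29, interval -0.56 to 0.72), and it was -0.22 without S273A replicate 6.

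The gelatinase Mmp2 was the highest Mmp gene per length, at 74.6 CPM per kb, and at 68.0 on merged exon length. The order of the next 3 depended on the length used, with Mmp14, Mmp12 and Mmp19 at 49.8, 45.5 and 36.6 by deposited length and 31.8, 45.4 and 58.7 by merged exons. Mmp2 (chromosome 8, 92827291 to 92853420), which cuts denatured collagen and basement membrane, was at 218, 212, 229.5 and 269.8 CPM in WT and 239, 183, 238 and 244 CPM in S273A. S273A replicate 3 was lowest and WT replicate 5 highest, and the other libraries lay between 212 and 244 CPM (estimate -0.040, SE 0.11, interval -0.28 to 0.20). The sign turned without either of these libraries, to 0.056 without S273A replicate 3 and 0.039 without WT replicate 5.

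Mmp14, a collagenase held in the cell membrane that is known to be needed for fat cells to grow in collagen, had the smallest CV of the family, 6.71%. Mmp14 (chromosome 14, 54431612 to 54445364) was at 181, 179.8, 177 and 201 CPM in WT and 205, 176, 191 and 205 CPM in S273A, overlapping ranges (estimate 0.074, SE 0.067, interval -0.075 to 0.22).

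The other membrane-bound members were lower. Mmp15 and Mmp24, membrane-type enzymes like Mmp14, stood at 4.51 and 3.92 CPM per kb, and Mmp17 and Mmp25, which hold on by a lipid anchor, at 0.736 and 0.540. Mmp25 was at 2.08, 1.88, 1.57 and 1.29 CPM in WT and 1.95, 3.15, 1.84 and 2.03 CPM in S273A, with S273A replicate 3 above the rest (estimate 0.39, SE 0.23, unadjusted p 0.125 in edgeR).

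Mmp9 (chromosome 2, 164940780 to 164955850), the gelatinase of neutrophils and macrophages, was at 7.002, 5.74, 6.91 and 9.10 CPM in WT and 8.64, 9.78, 7.29 and 10.6 CPM in S273A. WT replicate 5 lay above S273A replicates 2 and 4, so the ranges overlapped, and the estimate of 0.34 (SE 0.16, interval -0.026 to 0.70) did not pass.

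Mmp12, which degrades elastin and is a classic product of macrophages, and Mmp19, found in many tissues, were among the higher Mmp genes. Mmp12 (row identifier uc009och.1, chromosome 9, 7344381 to 7369499) was at 330.1, 515, 304 and 275 CPM in WT and 169.8, 369.9, 402 and 264 CPM in S273A. WT replicate 2 was highest and S273A replicate 2 lowest, 3.03-fold apart, against an estimate between genotypes of -0.24 (SE 0.27, interval -0.85 to 0.37). The estimate was -0.0080 without WT replicate 2 and -0.045 without S273A replicate 2. Mmp12 shares 157 exon bases with Mmp1b, a gene on the opposite strand for which no row was found by symbol.

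The same 2 libraries were the extremes of Mmp19 and Mmp13. Mmp19 was at 205, 248, 193 and 199 CPM in WT and 161, 221, 229 and 203 CPM in S273A (estimate -0.053, SE 0.12). It shares 212 and 789 exon bases with 2 genes on the opposite strand. Mmp13 was at 2.43, 3.53, 2.60 and 1.94 CPM in WT and 0.725, 1.69, 2.76 and 1.60 CPM in S273A, a 4.87-fold range. Its estimate of -0.63 (SE 0.34, interval -1.40 to 0.14, unadjusted p 0.0959 in edgeR) was the lowest of the 40 estimates. In WT replicate 2, where these 3 genes were highest, the macrophage markers also had their highest sum, 9807 CPM. In S273A replicate 2, where they were lowest, the macrophage sum was 8679 CPM, the second highest of the 8 libraries, but the mean log2 deviation of the same 12 markers, which weights each equally, was -0.10, the second lowest. In WT replicate 2 that mean deviation was 0.22, the highest. The part of macrophage number in these values was not tested.

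Mmp8 had the highest estimate of the 40. It was at 0.593, 0.910, 0.410 and 0.705 CPM in WT and 0.892, 0.619, 0.402 and 3.38 CPM in S273A. S273A replicate 6 stood above the other 7 libraries, which were all under 1 CPM. The estimate was 0.97 (SE 0.65, interval -0.48 to 2.42) with all libraries and -0.050 without S273A replicate 6. The 10 neutrophil markers, all with a row, summed to 85.7 CPM in that library against 26.1 to 45.1 CPM in the other 7. Only 3 of these 10 had enough counts to be tested. The red blood cell markers, 4 of 6 with a row, also had their highest sum there, 129 CPM against 51.8 to 111 CPM in the other 7. The part of either list in the Mmp8 value was not tested.

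Mmp3, which activates other Mmp precursors, was at 21.3, 22.1, 18.95 and 26.7 CPM in WT and 19.2, 14.7, 16.8 and 25.4 CPM in S273A. WT replicate 5 and S273A replicate 6 were highest, and the estimate was -0.23 (SE 0.17, interval -0.60 to 0.14). Mmp27, a little-studied relative, was at 8.31, 10.4, 6.09 and 6.87 CPM in WT and 11.5, 7.82, 5.28 and 6.46 CPM in S273A (estimate -0.028, SE 0.25), with S273A replicate 2 highest, where Mmp12 and Mmp13 were lowest. The remaining tested Mmp genes, Mmp11, Mmp21, Mmp23 and Mmp28, had estimates of -0.034, -0.12, 0.080 and 0.015, all within 0.25 of 0.

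Adamts5, a main aggrecanase, which cuts aggrecan and versican, led the Adamts genes at 94.7 CPM per kb. It lies on chromosome 16, 85856173 to 85901828, on the same strand as its neighbour Adamts1. Adamts5 was at 849, 673, 799.8 and 856 CPM in WT and 883, 642, 798 and 637 CPM in S273A. The S273A libraries held both the highest value, in replicate 2, and the lowest, in replicate 6 (estimate -0.10, SE 0.12, interval -0.38 to 0.17). Other members that cut the same proteoglycans were Adamts1 (24.2 CPM per kb, estimate -0.051), Adamts4 (4.20, 0.11), Adamts9 and Adamts15.

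Adamts9 and Adamts15 had positive estimates. Adamts15 (chromosome 9, 30899155 to 30922452) was at 74.7, 79.96, 82.4 and 77.3 CPM in WT and 102, 80.1, 80.99 and 94.1 CPM in S273A. The S273A replicates 2 and 6 lay above every WT library and the other two lay within the WT range (estimate 0.19, SE 0.082, unadjusted p 0.0472 in edgeR). Adamts9 was at 78.1, 60.9, 80.9 and 70.3 CPM in WT and 92.4, 67.5, 77.5 and 87.3 CPM in S273A (estimate 0.16, SE 0.11), and it shares 1381 and 424 exon bases with 2 genes on the opposite strand.

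Adamts2, the protease that removes the amino-terminal propeptide of fibrillar procollagens, was at 317, 287, 315 and 368 CPM in WT and 368, 282, 311 and 376 CPM in S273A. The ranges overlapped almost fully (estimate 0.056, SE 0.11, interval -0.18 to 0.30). Adamts14 and Adamts3, which do the same work, stood at 3.03 and 0.726 CPM per kb beside 36.1 for Adamts2, with estimates of 0.079 and 0.081.

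Adamts10, a protein that binds fibrillin microfibrils, was 1 of 2 members whose genotypes did not overlap. Adamts10 (chromosome 17, 33524204 to 33553782) was at 69.8, 67.6, 71.8 and 67.5 CPM in WT and 60.8, 65.8, 62.6 and 66.6 CPM in S273A. The gap between the lowest WT and the highest S273A library was under 1 CPM. The mean was 69.2 ± 2.02 CPM in WT against 63.9 ± 2.74 in S273A (SD, n = 4 each), and the difference did not pass. The estimate was -0.11 (SE 0.050, interval -0.23 to -0.0011, unadjusted p 0.0482 in edgeR), and its CV of 5.37% was the smallest of all tested members.

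Adamts16, a little-known relative of Adamts18, had the smallest p of the members. Adamts16 (chromosome 13, 70727802 to 70841811) was at 7.89, 7.62, 11.1 and 9.22 CPM in WT and 6.13, 5.06, 7.01 and 8.49 CPM in S273A. WT replicate 3 was highest, and S273A replicate 6 lay above WT replicates 1 and 2 (estimate -0.42, SE 0.18, interval -0.82 to -0.029, unadjusted p 0.0380 in edgeR). Of the others, Adamts12 and Adamts7, which cut the cartilage protein Comp, had estimates of 0.032 and 0.13. Adamts6, Adamts8, Adamts17 and Adamts18 were at -0.021, 0.051, 0.23 and 0.48, the last 3 from levels under 0.2 CPM per kb.

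Lox, the founding lysyl oxidase, and Loxl1, which is needed to maintain elastic fibres, made up most of the RNA of the 4 oxidase genes with a row. No row carried the symbol Loxl3. Lox (chromosome 18, 52516067 to 52529867) was at 378, 274, 318 and 395 CPM in WT and 301, 302, 414 and 391 CPM in S273A, with 2 low and 2 high libraries in either genotype (estimate 0.043, SE 0.14, interval -0.28 to 0.36). Loxl1 (chromosome 9, 58287738 to 58313186) was at 128, 136, 129 and 153 CPM in WT and 112, 132, 157 and 161 CPM in S273A (estimate 0.042, SE 0.11, interval -0.21 to 0.30). S273A replicates 4 and 6 were highest and S273A replicate 2 lowest for Loxl1.

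Loxl2, which crosslinks basement membrane collagen, was at 58.8, 60.2, 53.1 and 58.9 CPM in WT and 61.4, 45.8, 57.3 and 63.99 CPM in S273A (estimate -0.017, SE 0.098, interval -0.24 to 0.20). Loxl4 (row identifier uc008hns.2, chromosome 19, 42593982 to 42612813) was the other member without overlap. It was at 15.9, 15.7, 16.8 and 16.3 CPM in WT and 17.2, 20.9, 17.3 and 17.6 CPM in S273A. All 4 S273A libraries lay above all 4 WT libraries, 3 of them closely and replicate 3 further off. The estimate was 0.18 (SE 0.081, interval -0.0047 to 0.36, unadjusted p 0.0552 in edgeR), and the difference did not pass.

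The comparison between genotypes asked whether loss of the phosphorylated serine goes with other levels of these genes in the depot. By edgeR's quasi-likelihood test with Benjamini-Hochberg adjustment over all 15667 tested rows, 0 of the 40 tested members were called in either direction (smallest adjusted p 1.00), where 0.00% of all rows were called. DESeq2 and limma-voom also called 0 members. At an unadjusted p under 0.05 there were 3 members, Adamts15 with a positive and Adamts16 and Adamts10 with negative estimates. They were 7.5% of the 40, beside 1.46% of all rows (0.913% with positive and 0.549% with negative estimates). Evenly spread p-values would put about 5% of rows under that limit, so the share over all rows was low. The count of 3 was 1 in DESeq2, 1 in limma-voom and 4 with the rows of a symbol summed. It was 1 without WT replicate 1, 2 or 5 or S273A replicate 2, and 0 without WT replicate 3. Without S273A replicate 3 it was 2, and without S273A replicate 4 or 6 it was 3. The genotypes did not overlap for 2 members, 5% beside 1.19% of all rows. Loxl4 was higher in S273A, as were 0.657% of all rows, and Adamts10 lower, as were 0.530%. Estimates were above 0 for 25 members and below 0 for 15, 62.5% positive beside 50.7% of all rows. Without S273A replicate 6 only 17 of the 40 were above 0.

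The members' median log2 fold change was 0.053, beside 0.0015 over all rows, and it was -0.010 without S273A replicate 6. By family the medians were 0.015 for Mmp, 0.080 for Timp, 0.067 for Adamts and 0.043 for Lox and Loxl, and each took both signs when 1 library was left out. Of the 40 estimates, 34 lay within 0.25 of 0. The confidence interval stayed within 0.5 of 0 on both sides for 25 members and within 1 for 37. A 2-fold difference therefore lay outside the interval of all tested members other than Mmp8, Mmp13 and Adamts18, each with a mean under 3 CPM.

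**Figure D3:**
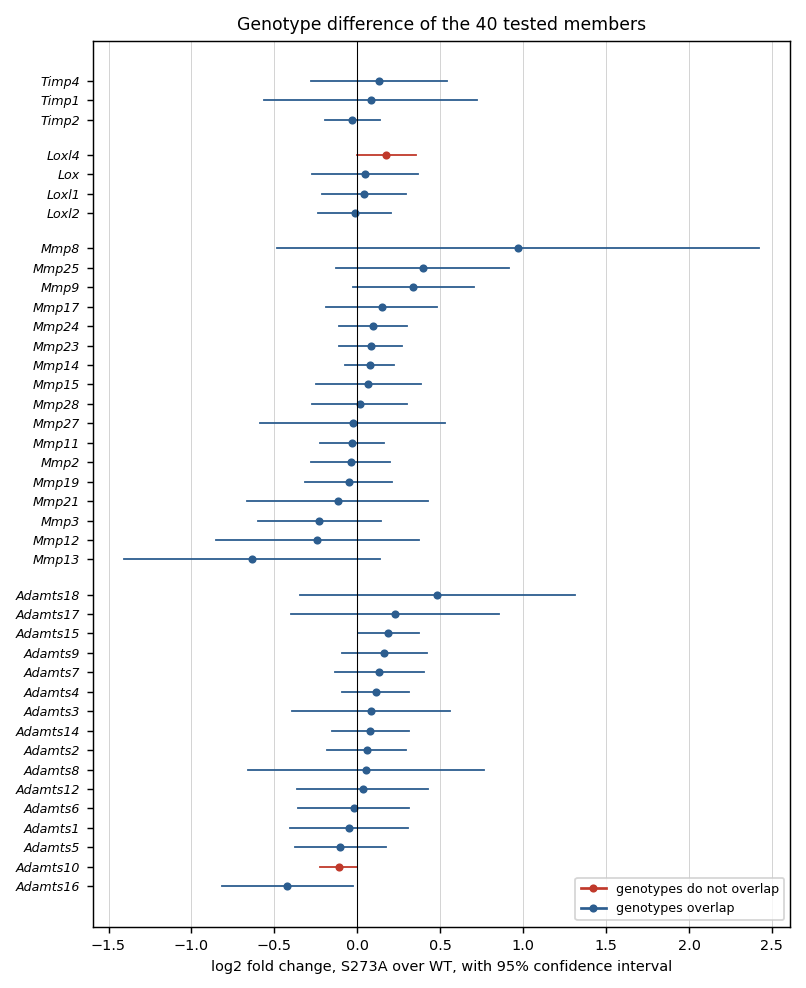
Log2 fold change of S273A over WT (horizontal axis) with its 95% confidence interval for the 40 tested members, grouped from top to bottom as Timp, Lox and Loxl, Mmp and Adamts. Red marks the 2 members whose genotypes did not overlap, Loxl4 above 0 and Adamts10 below, and the widest intervals belong to Mmp8, Adamts18 and Mmp13.

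The members' values spread widely between libraries. Their median CV was 13.5% over the 36 tested members with a mean of at least 1 CPM, beside 9.78% over the 14803 such rows. The 5 most variable of these 36 were Mmp13 (39.7%), Timp1 (31.5%), Mmp12 (31.4%), Mmp27 (27.6%) and Mmp25 (27.4%). S273A replicate 6 held the highest value for 10 of the 40 members and S273A replicate 2 for 9. WT replicate 2 held the lowest for 11, S273A replicates 2 and 3 for 8 each. In WT replicate 2, which had the lowest adipocyte and endothelial marker sums, the 11 genes at their lowest were Lox, Loxl4, Adamts1, Adamts9, Adamts12, Adamts17, Adamts18, Mmp9, Mmp15, Mmp24 and Mmp28, and the 6 at their highest Mmp11, Mmp12, Mmp13, Mmp19, Mmp21 and Adamts6. The part of the tissue's cell makeup in this pattern was not tested.

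**Figure D4:**
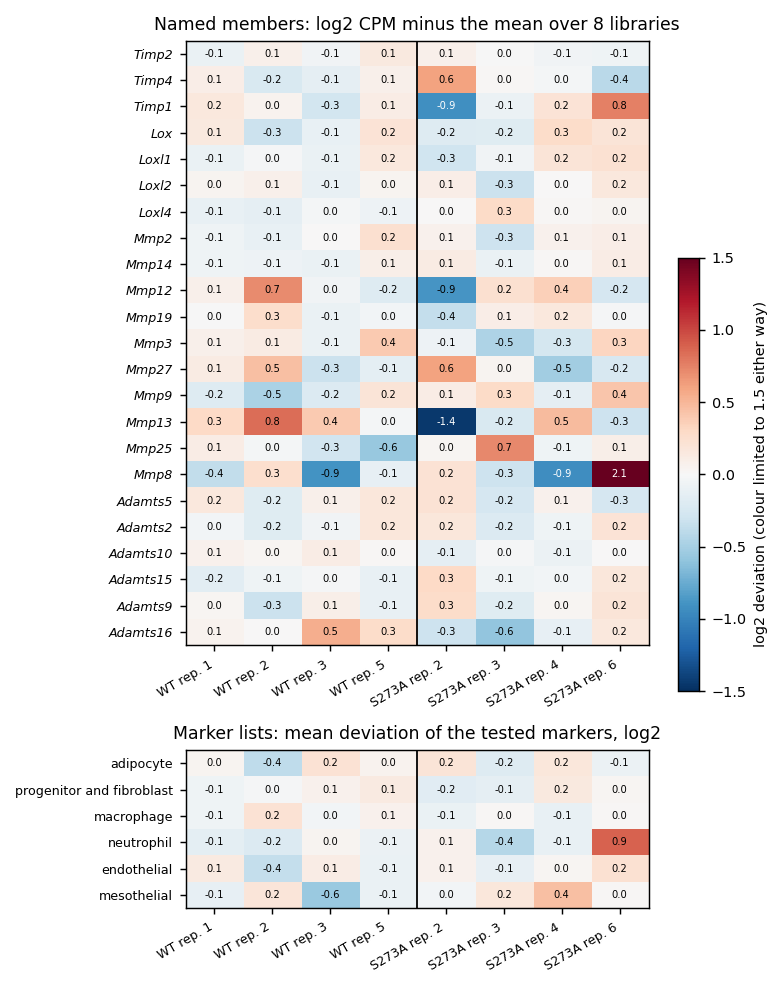
Log2 CPM of the 23 members described by library, each minus its mean over the 8 libraries (upper panel, columns are libraries, WT left of the black line), and the mean deviation of 6 marker lists (lower panel). Colour stops at 1.5 either way, red above and blue below the mean. The strongest cells are Mmp8 in S273A replicate 6, where the neutrophil markers are also highest, and Mmp13 in S273A replicate 2.

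The 8 members too low to be tested were Mmp1a, Mmp7, Mmp10, Mmp16, Mmp20, Adamts13, Adamts19 and Adamts20. Over all 8 libraries they had 2, 29, 21, 65, 1, 32, 58 and 30 counts. Adamts13, the protease of von Willebrand factor, is made chiefly in the liver, and had 1 to 7 counts per library. Mmp7 had 16 of its 29 counts in S273A replicate 2, and Mmp16 had 21 of its 65 there. No difference between genotypes was detectable for these genes at this depth.

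Other genes of matrix turnover were taken as 8 lists by role, 94 genes of which 89 matched a row and 77 could be tested. None was called (edgeR, adjusted over all rows), and 1 of 77 had an unadjusted p under 0.05, beside 1.46% of all rows. That gene was Slpi, a secreted inhibitor of serine proteases that also belongs to the mesothelial cell layer, at 20.1, 22.5, 13.8 and 15.4 CPM in WT and 18.1, 28.4, 28.7 and 22.03 CPM in S273A (estimate 0.43, SE 0.19). The 8 mesothelial markers all had positive estimates as well, with summed CPM of 109 to 176 in WT and 158 to 216 in S273A, and their part in the Slpi value was not tested. Over the 77 genes 49 estimates were above 0 and 28 below, with a median of 0.026. Over all rows 50.7% were above 0, with a median of 0.0015.

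In the plasminogen system, which can activate Mmp precursors, 0 of 7 tested genes were called. Its receptor gene Plaur was at 23.8 ± 3.18 CPM in WT against 26.8 ± 3.09 in S273A (SD, n = 4 each), the protease Plau at 257 ± 25.9 and 236 ± 37.9, and the receptor Plgrkt at 22.2 ± 0.318 and 21.5 ± 0.598. Among 12 tested membrane and activating proteases 0 were called, and the sheddases Adam10 and Adam17 and the convertase Furin had estimates of -0.070, -0.049 and 0.042. All 9 tested cathepsins and cystatins had negative estimates, from -0.11 to just under 0, with 0 called. The lowest of these was Ctss, a macrophage cathepsin, at 778 ± 149 CPM in WT against 721 ± 94.1 in the S273A libraries, and Ctsl and Ctsk were at -0.069 and -0.092 on the log2 scale. In the same libraries 11 of the 12 macrophage markers had negative estimates (median -0.094), and their part was not tested.

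Procollagen processing genes gave 0 of 6 called, with Tll1, a relative of the procollagen C-proteinase, at 6.17 ± 1.06 CPM in WT against 7.22 ± 0.620 in the S273A libraries, and Htra3 and Pcolce2 at -0.076 and 0.056. Besides Slpi, the other protease inhibitors Spock2 and Spock1 had estimates of 0.19 and -0.24, with 0 of 9 called. ADAMTS-like proteins, which resemble the ADAMTS enzymes without the protease part, gave 0 of 6 called, with Adamtsl3, Adamtsl4 and Adamtsl5 at 0.080, 0.034 and -0.044. Collagen hydroxylases and other crosslinking enzymes gave 0 of 11, with the transglutaminase Tgm1 at 0.27, the prolyl hydroxylase subunit P4ha2 at 0.075 and the lysyl hydroxylase Plod3 at -0.058. Substrates and partners gave 0 of 17, with 14 estimates above 0. Of these the collagen-binding proteoglycan Fmod was at 36.7 ± 5.56 CPM in WT against 42.8 ± 3.004 in S273A, the elastic fibre protein Fbln5 at 162 ± 10.5 and 178 ± 13.1, and the syndecan Sdc1 at 82.5 ± 14.3 and 76.05 ± 10.4. Fmod and Fbln5 had unadjusted p of 0.0598 and 0.0756 in edgeR and did not pass.

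Timp4 lies closest to the edited gene, and its neighbours on chromosome 6 were read beside it. Pparg was at 134, 106, 138 and 137 CPM in WT and 165, 125, 141 and 129 CPM in S273A (estimate 0.12, SE 0.11). Syn2, on the other strand around Timp4, was at 13.1, 11.5, 14.1 and 14.4 CPM in WT and 19.1, 13.9, 19.6 and 13.2 CPM in S273A (estimate 0.31, SE 0.14, interval -0.013 to 0.63). None of the 3 was called, and S273A replicate 2 had the highest value of Timp4 and of Pparg.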

How the data were processed

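Whole-tissue RNA was sequenced in 8 libraries. Per the labels' protocols, ribosomal RNA was removed from 400 ng of RNA, the cDNA kept no strand information, and tagmented fragments were amplified for 12 cycles and read as pairs of 36 bases. The authors deposited 1 table of raw counts for 31854 rows, with each row's feature length in bases. Per the submitters' processing notes, which give no roles, the tools were featureCounts 1.5.2, Picard 2.9.2, HISAT2 2.0.5, bcl2fastq 2.20.0 and, from the authors, edgeR 3.3.0, and the build was mm10. For the annotation and for duplicate or multiply mapped reads, the handling is not given in the sources used here. Total counts were 14880239 to 18194889 per library.

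The counts were fitted with edgeR 4.0.16 (R 4.3.3): filterByExpr (minimum count 10, total 15) left 15667 rows, library sizes were scaled by TMM, and genotype was tested with a robust quasi-likelihood fit, adjusted over all rows, with a threshold of 0.05. No covariate was used, as the labels name none. Alternatives were RLE scaling, no filter, DESeq2 1.42.0, limma-voom 3.58.1, leaving out each library, summing a symbol's rows and the replicate number as a block. For a symbol on several rows the row with the highest total was used. Level per length is CPM per kb of the deposited length, with merged GENCODE exons as an alternative added after seeing the data. Values in every library are given for members without overlap, the 10 smallest p, the 10 highest levels per length, all Timp and Lox genes and the 5 highest CVs. In each pathway list up to 3 genes with the smallest p are named. Members and lists were chosen with earlier results of these data known. The script was tested on simulated data, with 50 changed rows at each fold. It recovered 11 at 1.25-fold, 22 at 1.5-fold, 43 at 2-fold and 50 at 4-fold, with 7 false calls. The simulated rows varied independently of one another and held planted changes, whereas 0 rows were called in the measured data. These counts therefore check the script and do not give the power for a member. Promoter bases come from RefSeq (GRCm38.p6) and gene positions from GENCODE M21 (GRCm38, the same build as mm10).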

Additional observations from a re-analysis of the deposited data

Results flagged for a closer look

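In 6 of the 128 groups of 4 libraries looked at, for the tested members and the named pathway genes, 1 library stood apart: its gap to the nearest library, as a share of the group's range, exceeded Dixon's 95% critical value. About 1 group in 20 does so by chance. Mmp8 in S273A was at 3.38 CPM in replicate 6 and at 0.402 to 0.892 CPM in the others (gap 0.836 of the range). Loxl4 in S273A was at 20.9 CPM in replicate 3 and 17.2 to 17.6 in the others (0.899). Mmp2 in S273A was at 183 CPM in replicate 3 and 238 to 244 in the others (0.891). Mmp25 in S273A was at 3.15 CPM in replicate 3 and 1.84 to 2.03 in the others (0.853). Mmp17 in S273A was at 3.01 CPM in replicate 2 and 3.56 to 3.66 in the others (0.855). Mmp14 in WT was at 201 CPM in replicate 5 and 177 to 181 in the others (0.846). S273A replicate 3 was the library that stood apart in 3 of the 6.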

How the results depend on the processing

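No member and no gene of the pathway lists was called in any of the 14 alternatives run. Over all rows 1 row was called by DESeq2 and 1 without S273A replicate 4 (0 to 1 in the fits without 1 library), neither a member. The count of members at an unadjusted p under 0.05, 3 in the reported fit, was 1 in DESeq2, 1 in limma-voom and 1 with the replicate block. It was 3 with RLE scaling, 2 without the filter, 4 with the rows of a symbol summed, and 0 to 3 without 1 library. The members' median log2 fold change ran from -0.010 to 0.11 without 1 library, and the family medians from -0.0065 to 0.085 (Mmp), -0.060 to 0.15 (Timp), -0.0076 to 0.15 (Adamts) and -0.020 to 0.12 (Lox and Loxl). The Timp median was -0.027 in limma-voom and the Lox and Loxl median -0.031 with the replicate block. Estimates above 0 numbered 17 to 28 of 40 without 1 library. Of 322 alternative values for the 23 described members 26 had the opposite sign and none was called. Adamts9, Adamts10, Adamts15, Adamts16, Loxl4, Mmp3, Mmp9, Mmp12, Mmp13, Mmp14 and Mmp25 kept their sign in all, Mmp12 at -0.41 to -0.0080 without 1 library. In limma-voom Timp1 was at -0.047.

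Replicate numbers 2 and 3 occur in both genotypes, but the labels do not say that they pair the libraries. Deviations from the group mean correlated at -0.084 for number 2 and -0.22 for number 3. Between libraries of unlike number they ran from -0.43 (WT replicate 5 with S273A replicate 3) to 0.47 (WT replicate 2 with S273A replicate 3). With the replicate block the sign turned for Adamts5 (0.037), Loxl1 (-0.12), Mmp27 (0.25), Timp1 (-0.38) and Timp2 (0.021). Leaving out 1 library in turn gave both signs for Adamts2 (-0.0053 to 0.14), Lox (-0.048 to 0.12), Loxl1 (-0.030 to 0.14), Loxl2 (-0.075 to 0.084), Mmp2 (-0.082 to 0.056), Mmp8 (-0.050 to 1.27), Mmp19 (-0.12 to 0.044), Mmp27 (-0.28 to 0.13), Timp1 (-0.22 to 0.31), Timp2 (-0.068 to 0.013) and Timp4 (-0.087 to 0.26). The cause was not tested, beyond the fewer libraries each such fit holds. Of the 10 highest members per length, 9 were also among the 10 highest in CPM, and 9 by merged exon length, an alternative chosen after seeing the data. The protein features planned were not analysed here. Members with few counts, such as Mmp8, have the widest intervals.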

Other observations

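A second row carried the symbol Loxl2 (row identifier uc029slk.1), with 18 to 34 counts per library, and a second row the symbol Mmp12 (uc009ock.1), with 0 to 4. Summing the rows of a symbol left the members' median log2 fold change at 0.057.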
